A study of Zea mays with 24 samples.

Results

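The exons described here are skipped exons of 52 to 200 bases whose length is not divisible by 3, so that leaving them out of the mRNA shifts the reading frame of any coding sequence that continues past them. They were chosen by type (exon skipping, ES) and by length alone, without use of any read count. Of 31439 alternative splicing (AS) events in the 2 tables of the series, 7013 were such ES events in 4230 genes. Of them 6220 (in 3885 genes) were among the 28092 events listed at V5, 4083 (in 2769 genes) among the 22077 events listed at V4, and 3290 were listed at both stages. An ES event is a skipped exon together with the exons it is spliced to on each side, and the 7013 events used 6456 different skipped exons.

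Poly(A) RNA came from the middle of the newest fully expanded leaf of maize (Zea mays) plants of the inbred line W22, moved as seedlings into chambers with daily temperature cycles. The groups were V5 leaves at 27 days after germination (DAG) and V4 leaves at 20 DAG, each from plants whose warmest hours of the day (maximum daily temperature, MDT) reached 31°C, 33°C, 35°C or, in the hottest group, 37°C, with 3 libraries in each of the 8 groups. All plants were W22 and were treated alike apart from the MDT and the night temperature tied to it, and the higher MDTs were set against 31°C. Each MDT was run in 2 chambers and the libraries came from separate plants, but the labels do not tell which chamber a plant stood in, so a chamber and its MDT cannot be told apart. The tables hold splicing values only, so the leaf label was not checked against marker genes.

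In an exon-skipping event the spliceosome joins the exon upstream of the skipped exon directly to the exon downstream of it. An exon whose length is a multiple of 3 can be left out and the downstream codons are still read as before. Skipping of an exon of another length changes every downstream codon, which often brings in a premature termination codon, and mRNAs with such codons can be degraded by nonsense-mediated decay or give a truncated protein. In plants, serine/arginine-rich (SR) proteins are regulators of splice-site choice, and many of their own transcripts are alternatively spliced in heat and cold. The quantity compared throughout is ψ, the percentage of an event's transcripts that include the exon, obtained from the reads that support inclusion and skipping after each is divided by the length over which it can be counted. ψ describes the mRNA present in the leaf, and the making of an isoform, its decay and the mixture of cell types in the leaf cannot be told apart by it.

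The skipped exons had a median length of 97 bases (quartiles 74 and 128), close to the 96 bases of frame-preserving skipped exons in the same length range. Lengths of 1 base more than a multiple of 3 occurred in 3407 events and lengths of 2 bases more in 3606. Of all ES events with an exon of 52 to 200 bases, 58.0% were frame-shifting at V5 (Wilson 95% interval 57.1% to 58.9%) and 56.5% at V4 (55.3% to 57.6%), whereas 67.1% of the whole numbers in that range are not divisible by 3. The share was 57.4% at V5 and 55.5% at V4 among exons of 52 to 100 bases, and 60.0% at V5 and 60.5% at V4 among exons of 151 to 200 bases. The Wilson 95% intervals of these classes, in the same order, were 56.1% to 58.6% and 57.5% to 62.5% at V5. At V4 they were 53.9% to 57.1% and 57.5% to 63.4%. Such intervals count each event as independent, although events share exons and genes. The difference between the classes was not tested, and exons that are never skipped were not compared. The intron upstream of the skipped exon had a median length of 352 bases and the downstream intron 318 bases, against 323 and 290 bases for frame-preserving exons. Most genes (2696 of 4230) had 1 such event, and Zm00001d013620 had the most, with 16.

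Some of these exons also took part in AS of another type. At V5, 12.0% of the different exons (695 of 5771) were also listed as 1 of a pair of mutually exclusive exons, against 14.2% of frame-preserving exons, and at V4 10.4% (401 of 3846) against 12.4%. An alternative 5′ or 3′ splice site was listed for 15.6% of the exons at V5 and 15.0% at V4, against 14.9% and 15.1% of frame-preserving exons. An intron next to the skipped exon was also listed as retained in 6.64% of the events at V5 and 7.27% at V4. These shares are descriptions of the tables and were not tested.

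Reads that supported skipping were few in most events. Summed over the exons listed, a library had between 409385 and 642516 inclusion and skipping reads at V5 and between 246376 and 415035 at V4, and the median event had 75 to 94 reads at V5 and 50 to 63 at V4. A library lists an event only where the event was built in it with at least 1 read of each isoform, and between 32.5% and 37.4% of the events listed in a V5 library, or 33.6% and 38.9% in a V4 library, rested on a single skipping read. At V5 only 414 events (6.66%) had a value in all 12 libraries and 2425 (39.0%) had one in a single library, while at V4 241 (5.90%) and 1644 (40.3%) did. Events with a missing value cannot be read as fully included, since part of them belong to deeply covered exons that were built in some libraries and not in others.

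The number of frame-shifting exons listed per library differed with MDT at V5. It was 1752, 1690 and 1734 at 31°C, 2164, 2165 and 2248 at 33°C, 2300, 2410 and 2258 at 35°C, and 1677, 1646 and 1623 at 37°C. The 33°C and 35°C libraries were all above the 31°C libraries, and the 37°C libraries all below them. With at least 2 reads of each isoform the order was similar, with means of 1076 ± 16.5, 1431 ± 54.4, 1463 ± 19.6 and 1060 ± 1.53 events from 31°C to 37°C (SD, n = 3 libraries each). At V4 the libraries listed 1306, 1194 and 1194 exons at 31°C, 1123, 1109 and 1199 at 33°C, 1315, 1397 and 1343 at 35°C, and 1185, 1193 and 1321 at 37°C, and only the 35°C libraries lay wholly above those of 31°C. The numbers were also higher at 33°C and 35°C at V5 in frame-preserving exons of the same lengths (means of 1143, 1506, 1598 and 1116 from 31°C to 37°C) and in all skipped exons (4005, 5120, 5392 and 3930). Reads summed over the frame-shifting exons listed had means of 524326, 593786, 577034 and 432640 from 31°C to 37°C at V5. This sum itself depends on the number listed, so it does not measure depth. Over the 414 frame-shifting events with a value in all 12 V5 libraries, the means were 113039, 114737, 106421 and 111371 reads. The part of depth in the number listed was not tested.

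**Figure D1:**
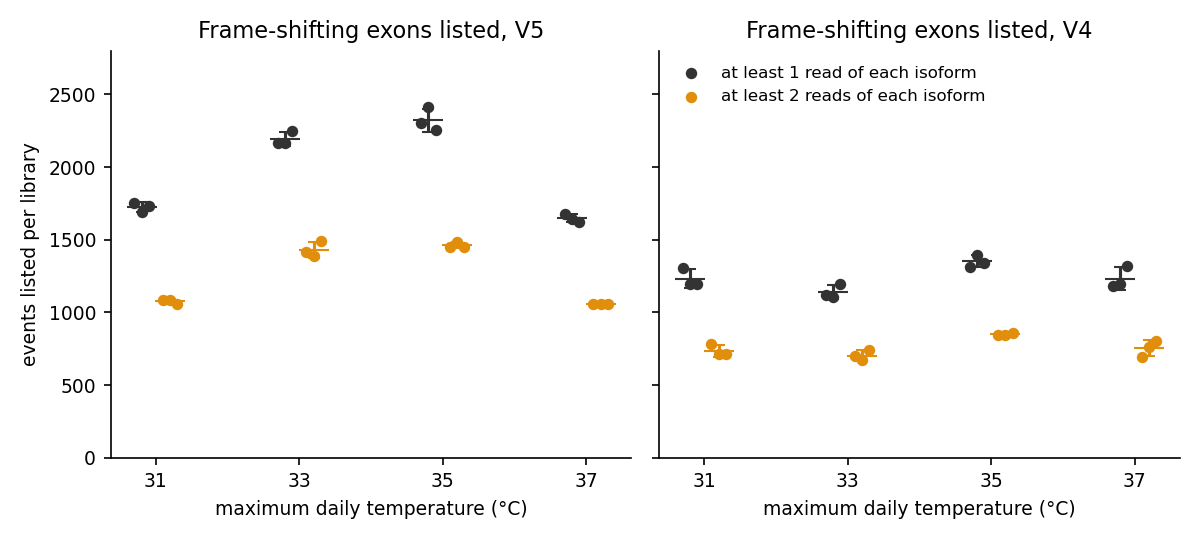
Number of frame-shifting skipped exons of 52 to 200 bases listed in each library (y axis) against MDT in °C (x axis), at V5 (left) and V4 (right). Black points need at least 1 read of each isoform and orange points at least 2; bars give the mean and SD of 3 libraries. At V5 the 33°C and 35°C libraries (2164 to 2410) lie above the 31°C libraries (1690 to 1752).

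Inclusion was the rule. The median ψ of the exons listed in a library was between 93.8% and 94.9% at V5 and between 91.2% and 92.9% at V4. Among exons with values in at least 6 libraries and a mean of at least 10 reads, the median of the mean ψ was 92.6% at V5 (1528 events) and 89.6% at V4 (879 events), and 13.5% of them at V5 and 17.9% at V4 had a mean ψ below 50%. Exons of 151 to 200 bases had lower medians (88.1% at V5, 86.0% at V4) than exons of 52 to 100 bases (92.9% at V5, 90.3% at V4). Exons with a length of 1 base more than a multiple of 3 had medians of 92.5% at V5 and 89.6% at V4, and those of 2 bases more 92.6% and 89.6%. Frame-preserving exons of the same lengths had medians of 93.0% at V5 and 91.2% at V4. Their medians were also lower at 151 to 200 bases (88.2% at V5, 86.5% at V4) than at 52 to 100 bases (93.8% at V5, 91.8% at V4). At the limits of the length range all listed events were taken, without the minimum of libraries and reads used above. At V5 frame-shifting exons just inside it (52 to 56 bases, 344 events) had a median of the mean ψ of 95.8%. Those just outside (47 to 51 bases, 246 events) had 95.3%. Exons of 196 to 200 bases (64 events) had 96.2% and those of 201 to 205 bases (50 events) 93.4%. At V4 the lower limit had 94.9% inside (221 events) and 93.2% outside (158 events). The upper limit at V4 had 96.4% inside (43 events) and 86.25% outside (41 events).

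The level of the exons as a class was compared in the events that had a value in all 12 libraries of a stage, so that the same exons stood in each library. At V5 (414 events) the median ψ of a library averaged 83.9% ± 0.340, 81.0% ± 0.794, 78.6% ± 0.711 and 83.3% ± 0.633 from 31°C to 37°C (SD, n = 3 libraries each). The 33°C and 35°C libraries, between 78.1% and 81.5%, did not overlap with the 31°C libraries, between 83.6% and 84.3%, and the 37°C libraries, between 82.5% and 83.8%, overlapped with them. At V4 (241 events) it was 75.5% ± 2.15, 73.8% ± 2.33, 71.6% ± 2.82 and 72.3% ± 2.39 from 31°C to 37°C, and the libraries of each higher MDT overlapped with those of 31°C (73.3% to 77.6%). Lower medians at 33°C and 35°C than at 31°C were also seen at V5 in frame-preserving exons of these lengths (81.8%, 76.3%, 76.8% and 81.9% from 31°C to 37°C) and in all skipped exons (80.3%, 76.5%, 75.1% and 79.1%). No test was made of these medians. Over all exons listed in a library, whether or not they were listed in the others, the V5 medians were 94.1%, 94.8%, 94.4% and 93.9% from 31°C to 37°C, and those of 33°C and 35°C were not below that of 31°C.

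**Figure D2:**
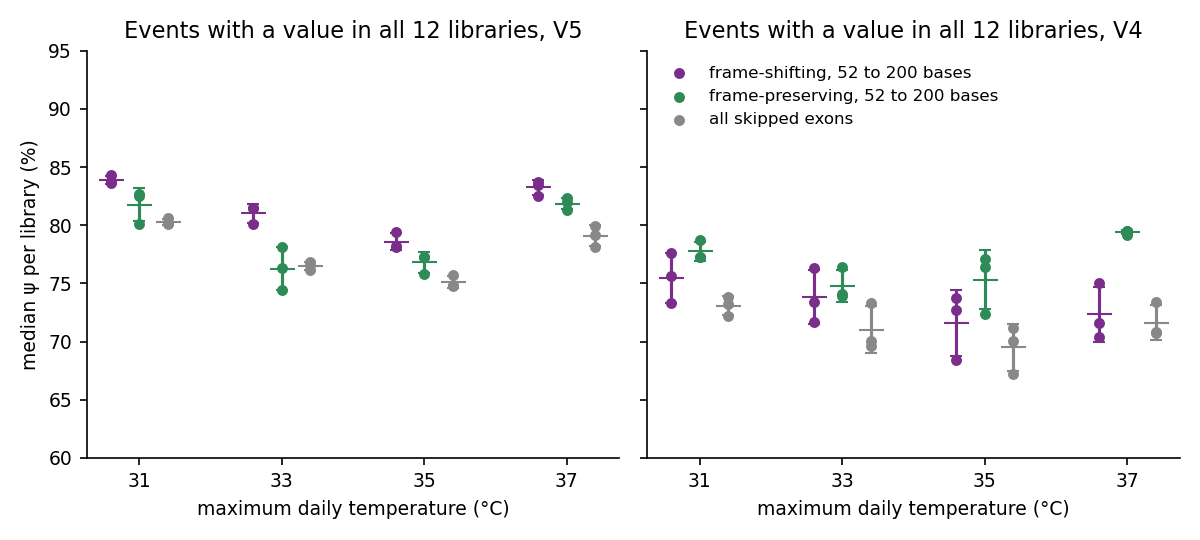
Median ψ in percent of the events with a value in all 12 libraries of the stage (y axis, which starts at 60%) against MDT in °C (x axis), at V5 (left) and V4 (right), for frame-shifting exons (purple), frame-preserving exons of the same lengths (green) and all skipped exons (grey). Points are libraries and bars the mean and SD of 3; at V5 the medians of all 3 sets are lower at 33°C and 35°C than at 31°C.

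Each higher MDT was compared with 31°C, and 37°C with 35°C, within a stage. A differentially spliced exon was one whose inclusion and skipping reads differed at a false discovery rate (FDR) of at most 0.01 and whose mean ψ differed by more than 5 points (Δψ, higher MDT minus lower MDT). The test was quasi-binomial, with the spread between libraries moderated over all events with limma, and needed a mean of 10 reads and a value in 2 of 3 libraries of each group. The 3 comparisons with 31°C within a stage share the 31°C libraries and are not independent of each other.

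At V5 35°C/31°C, 12 of 994 frame-shifting exons tested were called and in all 12 ψ fell at 35°C, beside 1.65% of all skipped exons tested (1.57% lower and 0.0849% higher). Their median absolute Δψ was 13.4 points. Over all 994 exons the median Δψ was -0.93 points and 62.8% had a lower mean at 35°C, close to the -0.75 points and 61.9% of all skipped exons. At V5 37°C/31°C 8 of 885 were called, 4 higher and 4 lower at 37°C, beside 1.15% of all skipped exons (0.479% higher and 0.67% lower), and the median Δψ was 0.10 points. At V5 33°C/31°C 2 of 1049 were called, both lower at 33°C, beside 0.166%. At V5 37°C/35°C, which does not use the 31°C libraries, 7 of 1050 were called and all were higher at 37°C, beside 0.681% of all skipped exons, with a median Δψ of 1.10 points over the exons tested. The V5 37°C/35°C count was 3 when 35°C replicate 1 or 37°C replicate 2 was left out, and 2 when 35°C replicate 3 was. It moved the V5 37°C/31°C count to 4 without 37°C replicate 1 or 3, and the V5 33°C/31°C count to 4 without 31°C replicate 2 and 6 without 33°C replicate 1.

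At V4 37°C/31°C, 13 of 631 frame-shifting exons were called, 7 higher and 6 lower at 37°C, beside 1.96% of all skipped exons (1.02% higher and 0.949% lower), and the median Δψ over the 631 was 0.40 points. The count was 8 without 31°C replicate 2 or 3 and 6 without 37°C replicate 3. At V4 35°C/31°C 2 of 644 were called, both lower at 35°C, beside 0.827% of all skipped exons (0.7% lower and 0.127% higher). At V4 33°C/31°C none of 591 was called by the quasi-binomial test (51 had an unadjusted p under 0.05), beside 0% of all skipped exons. None was called by limma on logit shares, or by edgeR's quasi-likelihood test in the 316 with a value in every library. At V4 37°C/35°C 1 of 703 was called, lower at 37°C, beside 0.0585% of all skipped exons (1 of 1709, this same exon). The count was 2 without 37°C replicate 2. For V4 31°C replicates 2 and 3, which enter every V4 comparison with 31°C, the inclusion reads were recovered from ψ and the skipping reads, and 86.3% of them in replicate 2 and 87.5% in replicate 3 were fixed to within 5% plus 0.5 reads.

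The share of frame-shifting exons called was 1.21% at V5 35°C/31°C, against 1.85% of frame-preserving exons of the same lengths. At V5 37°C/31°C it was 0.904% against 1.58%, at V5 37°C/35°C 0.667% against 0.857%, at V5 33°C/31°C 0.191% against 0.154%, at V4 37°C/31°C 2.06% against 2.68%, and at V4 35°C/31°C 0.311% against 0.941%. By length, more exons with 2 bases more than a multiple of 3 were called than with 1 base more, with 11 of 322 tested against 2 of 309 at V4 37°C/31°C, 8 of 443 against 0 of 442 at V5 37°C/31°C, and 9 of 494 against 3 of 500 at V5 35°C/31°C. The counts were closer at V5 37°C/35°C, with 4 of 518 against 3 of 532, and in the fit over 4 MDTs at V5 they were 23 of 387 against 14 of 371. The same exons are counted in several of these comparisons. Those of Zm00001d027756, BGI_novel_G002237, Zm00001d021396, Zm00001d029515 and Zm00001d003512, all with 2 bases more, were called at 37°C/31°C at both stages. Comparisons within a stage also share libraries, so the counts do not repeat each other independently. None of these differences in shares was tested. In the 6 comparisons with 31°C, 25 different frame-shifting exons in 25 genes were called out of 1288 tested in at least 1 of them, of which 16 were lower at the higher MDT in every call and 9 higher in every call. Among all skipped exons, 68 of 3016 were called in at least 1 of the 6 (2.25%), 49 of them lower in every call (1.62%) and 19 higher in every call (0.63%). Of the 25, 6 were called at both stages and none was called in both directions. These calls depended on the test. When limma was run on the logit of the read shares, which gives a thinly covered library the same weight as a deep one, only 1 of the 34 calls of named exons kept an FDR of at most 0.01, while 13 of the 34 had an FDR under 0.05 and the highest was 0.279. With edgeR's quasi-likelihood test 31 of the 32 calls that could be run were kept.

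**Figure D3:**
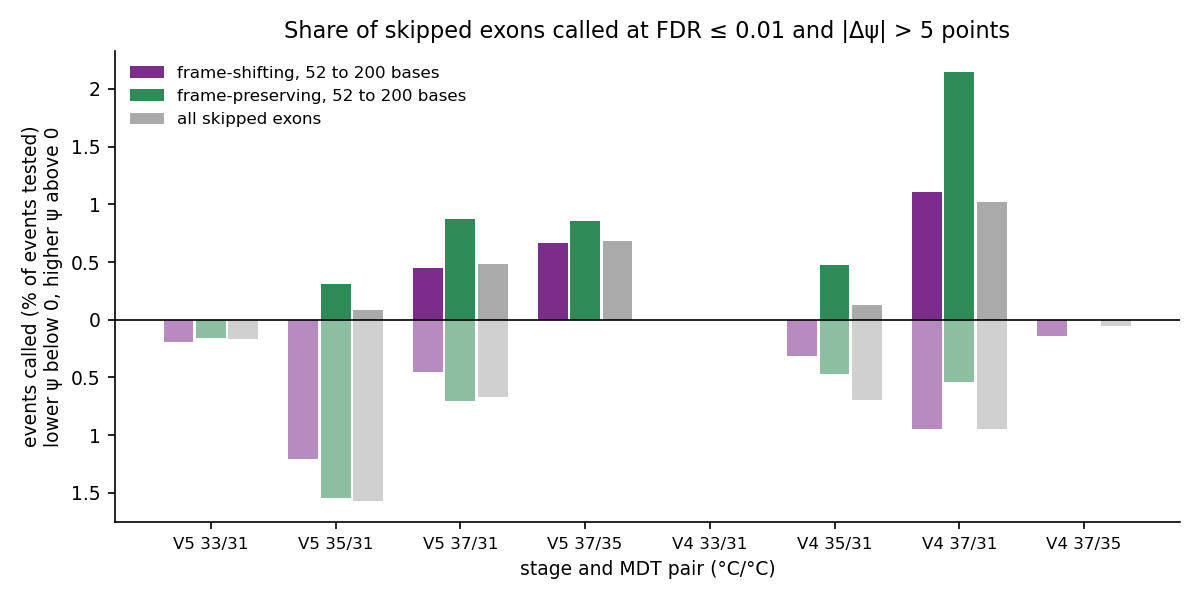
Percentage of the exons tested that were called at FDR of at most 0.01 and more than 5 points of Δψ (y axis), with exons higher at the higher MDT above 0 and exons lower at it below 0, for each stage and pair of MDTs (x axis). Purple bars are frame-shifting exons, green bars frame-preserving exons of the same lengths and grey bars all skipped exons; at V5 35°C/31°C all 12 frame-shifting calls are below 0 and at V5 37°C/35°C all 7 are above it.

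The exon called in the most comparisons lies in Zm00001d027756 on chromosome 1 (12714974 to 12715107, plus strand, B73 RefGen_V4), is 134 bases long and has introns of 414 bases upstream and 187 bases downstream. At V5 its ψ was 82.2%, 82.4% and 81.9% at 31°C, 53.4%, 59.7% and 51.5% at 33°C, 22.8%, 21.9% and 22.2% at 35°C, and 69.7%, 65.8% and 68.8% at 37°C. No library of any group overlapped with those of another, and the exon was left out of most transcripts only at 35°C. The differences were -27.3 points at 33°C/31°C (FDR = 1.14e-05), -59.9 points at 35°C/31°C (FDR = 3.98e-11) and -14.1 points at 37°C/31°C (FDR = 0.000177). Between 37°C and 35°C ψ was 45.8 points higher at 37°C (FDR = 1.21e-09). At V4 the exon had a ψ of 94.5%, 94.0% and 93.2% at 31°C, 86.3%, 87.1% and 86.8% at 33°C, 68.9%, 66.2% and 65.4% at 35°C, and 59.9%, 59.7% and 69.0% at 37°C. It fell by 27.1 points at 35°C/31°C (FDR = 4.31e-07) and by 31.0 points at 37°C/31°C (FDR = 3.49e-06), and the 37°C and 35°C libraries overlapped. Mean reads per library were between 510.3 and 829.7 in the 8 groups, and all 6 calls held without any 1 library. The 35°C/31°C call at V5 was the 1 that limma on logit shares also made (FDR = 0.00412).

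The change at 37°C/31°C in Zm00001d027756 differed between the stages. ψ was 14.1 points lower at 37°C at V5 and 31.0 points lower at V4. This difference of 17.0 points passed the test of the difference itself (FDR = 0.000327). Of all skipped exons, 0.0781% (1 of 1280) were called for a stage difference at 37°C/31°C, and that 1 was this exon. At 35°C/31°C the changes were -59.9 points at V5 and -27.1 points at V4, and the test of that difference missed the threshold (FDR = 0.0319). It was the only frame-shifting exon of 668 tested in at least 1 comparison whose difference between stages was called. When the FDR was taken over all 5 AS types, 4 were called.

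Further exons fell at the higher MDTs at both stages. That of the predicted gene BGI_novel_G002237 on chromosome 7 (181069745 to 181069839, minus strand, 95 bases) had a ψ of 96.9%, 95.1% and 95.3% at 31°C, 87.9%, 88.8% and 88.1% at 33°C, 80.5%, 76.2% and 79.5% at 35°C, and 77.8%, 77.0% and 80.2% at 37°C at V5. All libraries of the higher MDTs were below those of 31°C, by 7.50 points at 33°C (FDR = 0.00320), 17.0 points at 35°C (FDR = 1.24e-05) and 17.4 points at 37°C (FDR = 7.71e-06). At V4 it had 96.5%, 98.3% and 94.8% at 31°C, 94.1%, 93.5% and 92.6% at 33°C, 81.1%, 84.5% and 78.6% at 35°C, and 81.1%, 84.1% and 82.5% at 37°C, and the falls of 15.1 points at 35°C (FDR = 0.000114) and 14 points at 37°C (FDR = 5.52e-05) were called. BGI_novel_G002237 is listed in the tables as a predicted gene and carries no name or function there.

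The exon of Zm00001d021396 on chromosome 7 (150914790 to 150914890, plus strand, 101 bases) fell at 37°C. Its ψ at V5 was 84.6%, 80.5% and 84.0% at 31°C, 82.4%, 78.9% and 77.8% at 33°C, 75.5%, 75.9% and 77.3% at 35°C, and 67.1%, 63.6% and 70.4% at 37°C, which gave -16.0 points at 37°C/31°C (FDR = 0.000177). At V4 it was 80.2%, 83.3% and 81.7% at 31°C, 72.0%, 77.4% and 78.8% at 33°C, 77.0%, 74.6% and 74.4% at 35°C, and 46.7%, 42.5% and 55.2% at 37°C. The 37°C libraries at V4 lay 33.6 points below those of 31°C (FDR = 3.49e-06) and 27.2 points below those of 35°C (FDR = 0.000606), without overlap. The mean number of reads on the event was also lower at 37°C, with 716 per library against 1953 at 31°C at V5, and 600.0 against 1309 at V4, and the part of this in the result was not tested. The changes at 37°C/31°C of -16.0 points at V5 and -33.6 points at V4 were not called different from each other (FDR = 0.0850).

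Apart from that of SCL33, described with the splicing regulators, the remaining exons that fell at V4 37°C/31°C were called in no other pair. In Zm00001d027788 (chromosome 1, 13482281 to 13482393, 113 bases) ψ was 39.3%, 44.9% and 53.8% at 37°C, against 86.0%, 73.5% and 84.0% at 31°C, a fall of 35.2 points (FDR = 0.00738). The call was lost, with FDR between 0.0107 and 0.0351, when any library but 31°C replicate 2 was left out. Zm00001d031216 (chromosome 1, 182483225 to 182483307, 83 bases) had the largest Δψ of all frame-shifting exons called, -76.9 points (FDR = 0.00681), and is named after its values were seen, since it had fewer than 20 reads per library. Its ψ was 8.40% and 9.70% in 2 libraries at 37°C, against 76.3%, 88.5% and 93.1% at 31°C, from means of 7.50 and 15.7 reads.

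Inclusion of an exon of Zm00001d029515 rose at 37°C at both stages. The exon (chromosome 1, 74095744 to 74095874, plus strand, 131 bases) was mostly skipped at 31°C. At V5 ψ was 32.4%, 31.6% and 38.1% at 37°C, against 15.7%, 8.10% and 14.6% at 31°C (Δψ = 21.2 points, FDR = 0.00641), and at V4 49.1%, 46.1% and 43.6% at 37°C, against 15.1%, 16.9% and 26.2% at 31°C (Δψ = 26.9 points, FDR = 0.00364). The 37°C libraries were above all 31°C libraries at each stage, and the 35°C libraries at V5 (18.9%, 15.6% and 7.90%) overlapped with those of 31°C. The V5 call was lost without 31°C replicate 2 (FDR = 0.0224), 37°C replicate 1 (FDR = 0.0114) or 37°C replicate 3 (FDR = 0.0185), and the V4 call without 31°C replicate 1 (FDR = 0.0199) or 31°C replicate 2 (FDR = 0.0268).

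In Zm00001d014091 (chromosome 5, 32001946 to 32002070, minus strand, 125 bases) ψ at V5 was 49.0%, 46.8% and 46.9% at 37°C, against 12.0%, 27.0% and 12.9% at 31°C (Δψ = 30.3 points, FDR = 0.00808). At V4 it was 43.7%, 47.9% and 37.8% at 37°C, against 7.80%, 33.4% and 25.7% at 31°C, and the difference of 20.8 points was not called (FDR = 0.119). The V4 differences were -10.1 points at 33°C/31°C (FDR = 0.815) and -9.60 points at 35°C/31°C (FDR = 0.594), and the fit over 4 MDTs at V4 was called (FDR = 0.00296). The V5 call at 37°C/31°C was lost, with FDR between 0.0112 and 0.0335, without any library but 31°C replicate 2. Zm00001d052620 (chromosome 4, 195053542 to 195053663, 122 bases) rose at V5, with 80.8%, 78.3% and 80.7% at 37°C, against 64.6%, 54.3% and 62.6% at 31°C (Δψ = 19.4 points, FDR = 0.00406). Its call was lost without 31°C replicate 2 (FDR = 0.0179), 37°C replicate 1 (FDR = 0.0134) or 37°C replicate 3 (FDR = 0.0130).

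Further exons rose at V4 37°C/31°C. Zm00001d012806 (chromosome 5, 383389 to 383461, 73 bases) had 20.8%, 19.6% and 37.1% at 37°C, against 2.60% and 2.40% in the 31°C replicates 1 and 3, with no value in replicate 2 (Δψ = 23.3 points, FDR = 0.00681, and 0.0120 without 37°C replicate 3). The predicted gene BGI_novel_G000913 (chromosome 2, 240975513 to 240975619, 107 bases) had 32.9%, 38.0% and 31.3% at 37°C, against 16.5%, 17.9% and 22.9% at 31°C (Δψ = 15.0 points, FDR = 0.00784), and this call was lost, with FDR between 0.0152 and 0.0429, without any library but 31°C replicate 3. The exon of Zm00001d003512 (chromosome 2, 46297203 to 46297291, 89 bases), named after its values were seen, was deeply covered and rose at both stages. It had 92.3%, 94.7% and 92.2% at 37°C, against 82.0%, 80.9% and 82.3% at 31°C at V5 (Δψ = 11.3 points, FDR = 0.000117), and 93.3%, 93.5% and 92.5% at 37°C, against 81.5%, 82.9% and 81.7% at 31°C at V4 (Δψ = 11.1 points, FDR = 0.000229).

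The other exons that rose at V4 37°C/31°C were also named after their values were seen. The exon of Zm00001d029237 (166 bases) had 99.5%, 98.9% and 99.5% at 37°C, against 91.4%, 91.3% and 92.9% at 31°C (Δψ = 7.43 points, FDR = 0.00326), that of Zm00001d037240 (113 bases) 88.9%, 87.7% and 89.5%, against 82.1%, 76.8% and 78.2% (Δψ = 9.67 points, FDR = 0.00364), and that of Zm00001d048777 (65 bases) 20.7%, 26.0% and 26.1%, against 15.2%, 9.00% and 9.90% (Δψ = 12.9 points, FDR = 0.00956). Groups did not overlap in any of these. In the exon of Zm00001d048777, unlike in the others, skipping remained the more frequent form at 37°C.

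**Figure D4:**
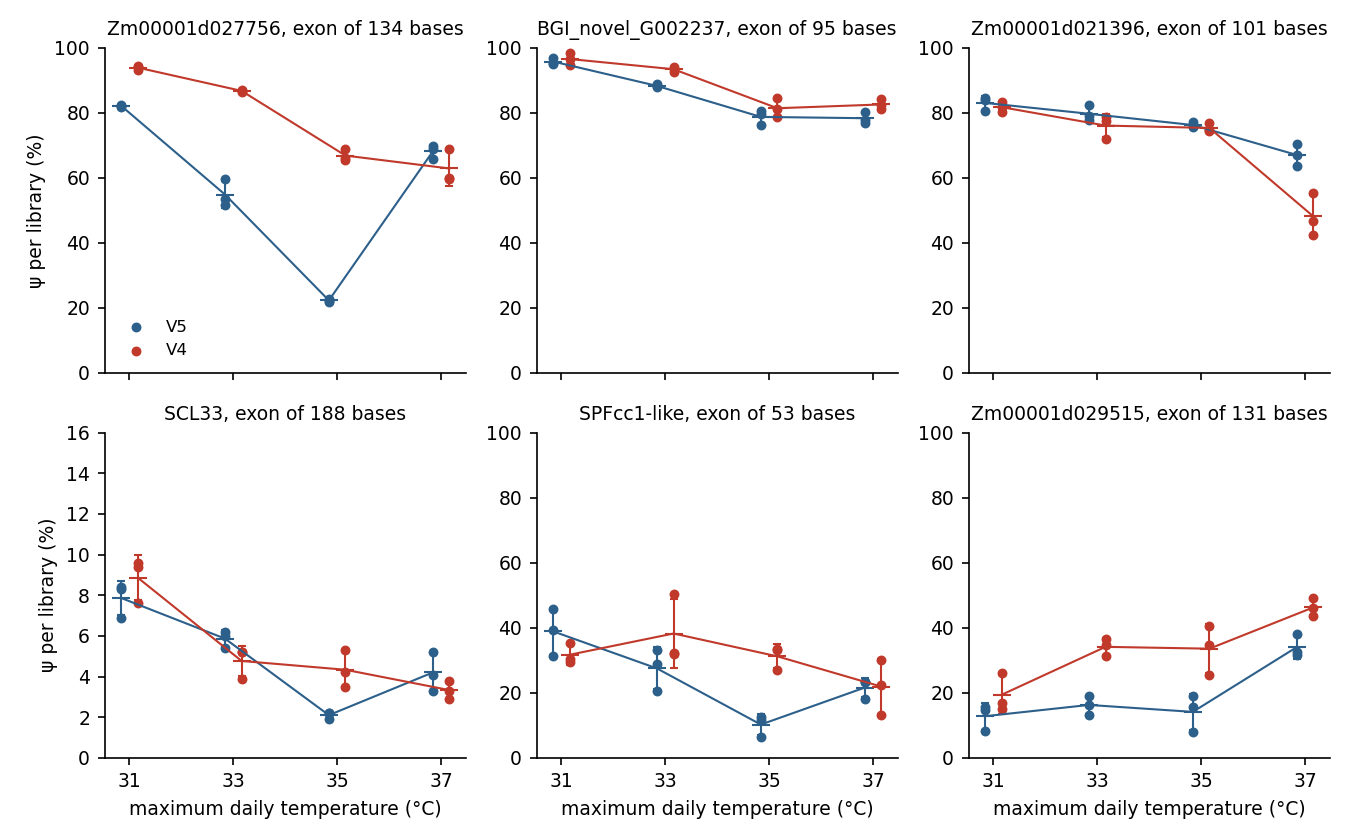
ψ in percent (y axis) of 6 frame-shifting exons against MDT in °C (x axis), with V5 in blue and V4 in red; points are libraries, lines join the group means and bars are the SD of 3 libraries. The y axis of SCL33 ends at 16% and the others at 100%. Zm00001d027756 at V5 is lowest at 35°C (22.3%) and higher again at 37°C (68.1%), whereas BGI_novel_G002237 stays low at 37°C and Zm00001d029515 is highest there.

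At V5 5 of the 7 exons that were higher at 37°C than at 35°C had also been called lower at 35°C than at 31°C. Both comparisons use the 35°C libraries, so that the 2 calls are not independent. In Zm00001d002534 (chromosome 2, 14895648 to 14895714, plus strand, 67 bases) ψ was 84.2%, 88.5% and 82.8% at 31°C, 63.0%, 54.7% and 41.8% at 33°C, 45.4%, 54.4% and 51.3% at 35°C, and 80.2%, 90.4% and 83.0% at 37°C. The exon was 34.8 points lower at 35°C than at 31°C (FDR = 0.00205, and 0.0109 without 31°C replicate 2), and 34.2 points higher at 37°C than at 35°C (FDR = 0.00279). At V4 its means over the libraries with a value were 85.4%, 88.0%, 92.8% and 80.1% from 31°C to 37°C, and none of the V4 differences was called.

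A pair of exons of Zm00001d032659 on chromosome 1 end at 233394261 and start at 233394152 (110 bases) or 233394156 (106 bases), so that they share reads. At V5 the longer one had 83.2%, 94.3% and 79.0% at 37°C, against 51.7%, 55.3% and 48.8% at 35°C (Δψ = 33.6 points, FDR = 0.00757), and the shorter one 92.8%, 97.1% and 90.7% at 37°C, against 70.0%, 77.7% and 68.9% at 35°C (Δψ = 21.3 points, FDR = 0.00635). The call of the longer exon was lost without 35°C replicate 1 (FDR = 0.0154), 35°C replicate 3 (FDR = 0.0186) or 37°C replicate 2 (FDR = 0.0150), and that of the shorter one without 35°C replicate 1 (FDR = 0.0138) or 3 (FDR = 0.0153). At 31°C they had means of 75.2% and 87.9%, between those of 35°C and 37°C.

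The exon of Zm00001d052751 with 113 bases (chromosome 4, 199807726 to 199807838) and that of Zm00001d036475 with 101 bases (chromosome 6, 89539618 to 89539718) also fell at V5 35°C. Zm00001d052751 had 79.4%, 86.6% and 82.7% at 35°C, against 96.7%, 97.5% and 96.1% at 31°C (Δψ = -13.9 points, FDR = 0.00766), and 98%, 96.0% and 96.8% at 37°C (Δψ to 35°C = 14 points, FDR = 0.00979). Zm00001d036475 had 80.5%, 80% and 81.3% at 35°C, against 92.8%, 94.3% and 93.5% at 31°C (Δψ = -12.9 points, FDR = 0.00226), and 91.6%, 92.5% and 92.4% at 37°C (Δψ to 35°C = 11.6 points, FDR = 0.00979). For Zm00001d052751 either call was lost without any of 5 of the 6 libraries, with FDR between 0.0133 and 0.0279 at 35°C/31°C and between 0.0148 and 0.0333 at 37°C/35°C, and for Zm00001d036475 the call at 37°C/35°C was lost without any of 5, with FDR between 0.0122 and 0.0263. In both genes the call at 37°C/35°C was also lost, at FDR = 0.0111, with no minimum of reads.

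An exon with intermediate inclusion, that of Zm00001d028034 (chromosome 1, 20933903 to 20934075, 173 bases), had 17.9%, 20.0% and 14.5% at V5 35°C, against 39.9%, 34.7% and 36.3% at 31°C, a fall of 19.5 points (FDR = 0.00104) that held without any 1 library. At V5 37°C/31°C the exon of Zm00001d018575 (chromosome 5, 223582252 to 223582313, 62 bases) had 67.7% and 70.7% at 37°C, against 85.1% and 83.7% at 31°C (Δψ = -15.2 points, FDR = 0.0005). This event was listed in replicates 1 and 3 of both groups and not in replicate 2 of either, although mean coverage was 974 reads at 37°C and 900 reads at 31°C. With 2 values a group, the call could not be repeated without any of them.

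Further exons called at V5 35°C/31°C, named after their values were seen, were all lower at 35°C. The exon of Zm00001d025827 (82 bases) had 81.5%, 78.2% and 79.6% at 35°C, against 92.3%, 91.2% and 92.8% at 31°C (Δψ = -12.3 points, FDR = 6.83e-05), and it was 7.70 points higher at 37°C than at 35°C (FDR = 0.00682). That of Zm00001d045472 (67 bases) had 82.8%, 85.1% and 79.9% at 35°C, against 93.5%, 95.1% and 96.1% at 31°C (Δψ = -12.3 points, FDR = 0.00498). That of Zm00001d010381 (53 bases) had 81.3%, 88.2% and 88.7%, against 96.0%, 96.8% and 95.6% (Δψ = -10.1 points, FDR = 0.00679). In the deeply covered exon of Zm00001d033985 (173 bases) ψ was 64.8% and 67.5% in the 2 libraries with a value at 35°C, against 74.5%, 73.6% and 77.4% at 31°C (Δψ = -9.02 points, FDR = 0.00481), while at 33°C it was 81.8%, 81.0% and 84.0%, above 31°C but not called (FDR = 0.0117).

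Of the splicing regulators named by the study, SCL33, SPFcc1-like and SR45a had frame-shifting exons. Regulators that the study does not name could not be recognised here. SCL33 (Zm00001d022243) encodes an SR protein of the SCL subfamily, and its 188-base exon (chromosome 7, 173494317 to 173494504, plus strand) was skipped in most transcripts. According to the paper, AS of SCL33 at higher MDT altered its 5′ untranslated region. Whether the 188-base exon lies in coding sequence was not examined. At V5 ψ was 6.90%, 8.30% and 8.40% at 31°C, 6.20%, 5.40% and 6.00% at 33°C, 1.90%, 2.20% and 2.20% at 35°C, and 5.20%, 4.10% and 3.30% at 37°C. All libraries of the higher MDTs were below those of 31°C, and the fall of 5.77 points at 35°C was called (FDR = 2.65e-05). At V4 ψ was 9.40%, 7.60% and 9.60% at 31°C, 5.20%, 3.90% and 5.20% at 33°C, 5.30%, 4.20% and 3.50% at 35°C, and 3.80%, 3.30% and 2.90% at 37°C, and the fall of 5.53 points at 37°C was called (FDR = 0.000421). Differences of -3.67 points at V5 37°C/31°C (FDR = 0.0186), -4.53 points at V4 35°C/31°C (FDR = 0.00876) and -4.10 points at V4 33°C/31°C (FDR = 0.0727) missed 1 or both thresholds.

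SPFcc1-like (Zm00001d048415) had 4 such events on chromosome 9. Its 53-base exon (155890848 to 155890900, minus strand) had a ψ at V5 of 39.4%, 45.9% and 31.4% at 31°C, 20.4%, 29.0% and 33.1% at 33°C, 11.5%, 12.7% and 6.50% at 35°C, and 23.3%, 18.1% and 23.4% at 37°C. The fall of 28.7 points at 35°C/31°C was called (FDR = 0.00205), with no overlap between the groups, and held without any 1 library, whereas -17.3 points at 37°C/31°C was not (FDR = 0.0767). At V4 the means were 31.7%, 38.2%, 31.2% and 21.9% from 31°C to 37°C, and no difference was called. The 71-base exon (155893319 to 155893389) had means between 21.0% and 31.5% at V5 and between 16.3% and 27.8% at V4, and the 107-base exon (155890629 to 155890735), listed with each of 2 upstream exon forms, had a mean of at most 26.7 reads per library. Neither was called in any comparison.

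SR45a (Zm00001d047847), an SR45 family member, had exons of 112 bases (chromosome 9, 143197531 to 143197642) and 127 bases (143197757 to 143197883) among the frame-shifting ones. Each was listed in a single library, V5 35°C replicate 2, with a ψ of 100% and 99.9% from 4675 and 3006 reads, so that no comparison could be made. A gene for a phosphatidylethanolamine-binding (PE-binding) protein (Zm00001d006116), of the family to which the flowering regulator FLOWERING LOCUS T belongs, had an 88-base exon (chromosome 2, 199006475 to 199006562) with 52.7%, 48.5% and 44.7% at V5 31°C from 20.7 reads per library, and at the higher MDTs of V5 it had a mean of 6.33 reads or fewer. Differences of -3.30 points at V5 33°C/31°C (FDR = 0.955) and 8.62 points at V5 35°C/31°C (FDR = 0.738) did not pass the test, nor did -14.3 points at V4 33°C/31°C (FDR = 0.961). At V4 35°C/31°C ψ was 38.6% and 13.6% at 35°C, against 52.4% and 71.5% at 31°C, from too few reads for the test, and the changes at 35°C/31°C were not called different between the stages (FDR = 0.652).

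Other genes named by the study gave too few values to be tested. A second PE-binding protein gene (Zm00001d021135) had a 62-base exon (chromosome 7, 143623046 to 143623107) that was split over 6 events with different flanking exons, each listed in 1 to 5 of the 24 libraries with ψ between 93.4% and 99.1%. The CAU1 homolog (Zm00001d004109) had a 146-base exon with ψ between 4.00% and 17.8% where it was listed, and it was listed in no library at 31°C. NCRK (Zm00001d014967), a receptor-like protein kinase gene, had an 86-base exon listed in 7 of 24 libraries, and MAPKKK3 (Zm00001d026511), a kinase of the mitogen-activated cascade, a 130-base exon listed in 3 of 24.

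In the fit over all 4 MDTs of a stage, 37 of 758 frame-shifting exons were called at V5 and 14 of 495 at V4, beside 5.84% of all skipped exons at V5 and 3.54% at V4, and 7.1% of frame-preserving exons of the same lengths at V5 and 4.62% at V4. The median range of the group means was 16.0 points at V5 and 19.2 points at V4, and 10 exons were called at both stages. At V5 mean ψ was lowest at 35°C in 16 of the 37 exons and at 33°C in 13, and it was highest at 37°C in 21 and at 31°C in 16. None of the 37 had its highest mean at 33°C or 35°C. Among all 105 skipped exons called in this way at V5, 41.9% were lowest at 35°C and 26.7% at 33°C, and of the 37 frame-shifting exons, which are among them, 43.2% and 35.1% were. The highest mean was at 37°C in 46.7% of the 105, at 31°C in 45.7%, at 33°C in 4.76% and at 35°C in 2.86%. At V4 mean ψ was lowest at 31°C in 6 and at 37°C in 5 of the 14 exons, and highest at 37°C in 7 and at 31°C in 6. Of all 42 skipped exons called at V4, 38.1% were lowest at 31°C and 31.0% at 37°C, and 45.2% were highest at 37°C and 50% at 31°C.

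Among the V5 exons of this kind the largest range after those of Zm00001d027756 and Zm00001d002534 was that of the longer exon of Zm00001d032659, followed by that of the 115-base exon of Zm00001d053036 (chromosome 4, 210073395 to 210073509), which was lowest at 31°C. Its ψ was 42.8%, 36.7% and 20.7% at 31°C, 66.7%, 52.6% and 49.7% at 33°C, 56.7%, 62.9% and 55.9% at 35°C, and 57.5%, 63.6% and 75.4% at 37°C (FDR = 0.00435), and all libraries of the higher MDTs were above those of 31°C. A 142-base exon of Zm00001d052751, which starts where the 113-base exon does and shares its reads, had 46.9%, 68.2% and 61.1% at 35°C, against 88.7%, 91.3% and 86.0% at 31°C (FDR over 4 MDTs = 0.00116). At V4 the 92-base exon of Zm00001d025665 (chromosome 10, 125375049 to 125375140) had means of 29.8%, 49.7%, 17.4% and 48.3% from 31°C to 37°C (FDR = 0.000907), with SDs of 12.0, 11.1, 3.06 and 9.99 points.

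**Figure D5:**
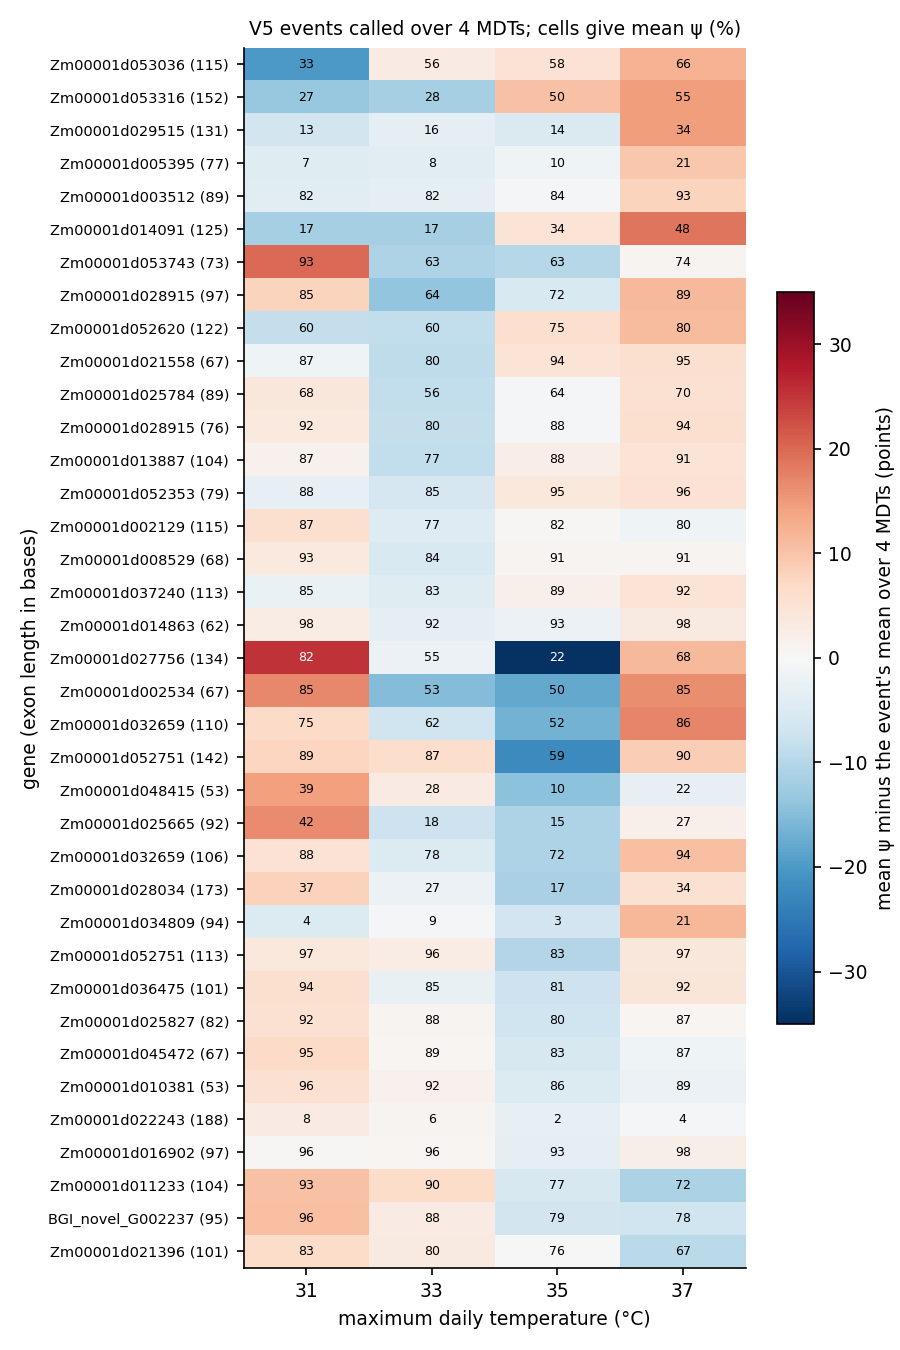
The 37 frame-shifting exons whose ψ was called different over the 4 MDTs at V5 (rows, gene and exon length in bases, grouped by the MDT of the lowest mean) against MDT in °C (columns). Numbers are mean ψ in percent and colours the difference from the exon's own mean over the 4 MDTs in points (scale cut at 35). Of the 37, 16 are lowest at 35°C and 13 at 33°C.

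Most frame-shifting exons with enough reads were not called. Of 7 exons with at least 100 reads per library on average and a mean ψ of 20% to 80% in each of the 8 groups, the 3 with the smallest range of means were those of Zm00001d012205, Zm00001d044464 and Zm00001d002511. The 146-base exon of Zm00001d012205 (chromosome 8, 170075005 to 170075150) had means of 68.9% ± 2.29, 73.2% ± 4.25, 69.4% ± 6.77 and 68.5% ± 2.35 from 31°C to 37°C at V5, and 63.6% ± 4.16, 63.5% ± 8.30, 64.4% ± 7.20 and 66.4% ± 3.49 at V4 (SD, n = 3 libraries each). Its largest difference from 31°C was 4.30 points, at V5 33°C (FDR = 0.577). The 193-base exon of Zm00001d002511 (chromosome 2, 14411979 to 14412171) had means of 48.0%, 62.7%, 49.9% and 44.0% from 31°C to 37°C at V5, and 46.7%, 43.4%, 44.8% and 53.1% at V4, and no difference was called. Zm00001d044464 (chromosome 3, 228880951 to 228881107, 157 bases) had 64.0% at 37°C, against 79.4% at 31°C at V5 (FDR = 0.0784), and 62.3% at 37°C, against 78.9% at 31°C at V4 (FDR = 0.130), so that its range was small only beside those of the other exons of this kind, and a missed threshold does not show that it stayed the same.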

How the data were processed

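The authors sequenced poly(A) RNA from 24 W22 leaf libraries (8 groups of 3), and according to the methods aligned reads with HISAT2 (2.0.4 in the submitters' processing notes) to B73 RefGen_V4 and detected AS events of 5 types with rMATS. The deposited tables, 1 per stage, hold inclusion and skipping read counts and ψ as a fraction, as the authors computed it from counts divided by effective lengths. Those lengths correspond to reads of 150 bases, although the methods state a shorter single-end read. Of the single-sample columns, 67 were matched to a library by name and 5 were not used, and repeated heading lines were dropped. Deposited ψ was matched from the counts within 0.0005 in all values checked, so ψ and the skipping counts gave back the inclusion counts for 2 libraries of V4 at 31°C, replicates 2 and 3 (1194 exons each, while 4 and 7 more, with a ψ of 100%, could not be recovered). Rounding of ψ fixed 86.3% of these counts in replicate 2 and 87.5% in replicate 3 to within 5% plus 0.5 reads, and the rest less closely.

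Differences were tested with a quasi-binomial F test in R 4.3.3, with the residual spread moderated over all events of a table by limma 3.58.1 and not below 1, and the Benjamini-Hochberg FDR taken over all skipped exons tested. The difference between stages was tested on the logit scale, with 0.5 added to each pooled count. Alternatives were a replicate block, edgeR 4.0.16, limma on logit shares, no minimum of reads, a value in every library, a spread shared by 4 groups, FDR over all 5 types, each library left out in turn and, chosen after seeing the data, events merged over outer flank ends. The scripts were tested on simulated data. Named exons were, per pair, up to 6 called ones with the largest Δψ among those with at least 20 reads and no overlap, every exon in a gene named by the study, exons called in 3 or more comparisons with 31°C, the 5 largest ranges per stage, the 3 most stable exons and those differing between stages. Members and lists were chosen with earlier results of these data known. Keyword lists of gene functions could not be applied, because the reference table matched 0 of the 4230 genes. Libraries are separate plants. Intervals cover counting error only, and sequences are not shown because the genome build of the files was not used here.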

Additional observations from a re-analysis of the deposited data

Results flagged for a closer look

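The 134-base exon of Zm00001d027756 changed by different amounts at the 2 stages. At 37°C/31°C its mean ψ fell by 14.1 points at V5 and by 31.0 points at V4, and the V5 change minus the V4 change was 17.0 points (FDR = 0.000327 in the test of the difference, with limma-moderated spread). In each stage all 3 libraries at 37°C lay below all 3 at 31°C. No cause of the difference was tested.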

How the results depend on the processing

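Counts of called exons moved with the test and with the demand for values. With limma on logit shares the counts were 0 at V5 33°C/31°C, 1 at V5 35°C/31°C, 0 at V5 37°C/31°C and V5 37°C/35°C, 3 over 4 MDTs at V5, 0 in each V4 pair and 3 over 4 MDTs at V4. The edgeR test was run only on exons with a value in every library. These were 576 of 1049 at V5 33°C/31°C and 530 of 994 at V5 35°C/31°C. Its counts were 6 at V5 33°C/31°C, 22 at V5 35°C/31°C, 11 at V5 37°C/31°C and 14 at V5 37°C/35°C. The V4 counts by edgeR were 0 for 33°C/31°C, 2 for 35°C/31°C, 9 for 37°C/31°C (13 in the main test) and 3 for 37°C/35°C. With a value likewise required in every library, the quasi-binomial counts were 10, 23, 14 and 17 at V5 33°C/31°C, 35°C/31°C, 37°C/31°C and 37°C/35°C. At V4 they were 1 for 33°C/31°C, 4 for 35°C/31°C, 14 for 37°C/31°C and 4 for 37°C/35°C. With a spread shared by 4 groups they were 7, 18, 14 and 10 at V5 33°C/31°C, 35°C/31°C, 37°C/31°C and 37°C/35°C. The count at V4 37°C/35°C was then 2, and the other V4 pairs had the same counts as in the main test. With FDR over all 5 types they were 4 at V5 33°C/31°C, 12 at V4 37°C/31°C and 4 for the stage difference. Over 4 MDTs they were then 36 at V5 and 13 at V4. Leaving out each library in turn gave 2 to 6 calls at V5 33°C/31°C, 9 to 13 at V5 35°C/31°C, 4 to 7 at V5 37°C/31°C, 2 to 7 at V5 37°C/35°C, 29 to 41 over 4 MDTs at V5, 0 at V4 33°C/31°C, 2 to 3 at V4 35°C/31°C, 6 to 11 at V4 37°C/31°C, 1 to 2 at V4 37°C/35°C and 10 to 16 over 4 MDTs at V4. Of the 34 calls of named exons, 20 held in every such fit, 13 were lost in at least 1, and for 1 (Zm00001d018575 at V5 37°C/31°C) no library with a value could be left out. None of the 466 alternative values changed sign, but most could not have done so. Every setting took the sign from the mean ψ, so another test or FDR scope could not reverse it. Nor could leaving out 1 library where the groups did not overlap. The cause of the changes in the counts was not tested.

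The median ψ per library depended on which exons were taken. From 31°C to 37°C it was 83.9%, 81.0%, 78.6% and 83.3% at V5 and 75.5%, 73.8%, 71.6% and 72.3% at V4 for exons listed in all 12 libraries. For exons with a mean of at least 10 reads it was 94.7%, 95.4%, 95% and 94.5% at V5 and 93.8%, 93.0%, 93.6% and 93.2% at V4. Most exons have few skipping reads, so small changes near full inclusion were not detectable at this depth.

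Pairing of the samples by replicate number was not seen. None of 18 same-numbered pairs at either stage had a correlation over 0.1 (median 0.0157 at V5 and 0.00558 at V4). The limit of 0.1 was not set by a test, and pairs with different numbers reached 0.1225 at V4. Low correlations do not show that same-numbered libraries had nothing in common. With the replicate number as a block the counts were 7 at V5 33°C/31°C, 26 at V5 35°C/31°C, 22 at V5 37°C/35°C, 1 at V4 33°C/31°C and 5 at V4 37°C/35°C. Over 4 MDTs they were 34 at V5 and 13 at V4, and the counts of the other pairs did not change. Of the 34 named calls 33 were kept, the exception being Zm00001d014091 at V5 37°C/31°C (FDR = 0.0146).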
